A study of Mus musculus with 4 samples.

Results

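Writers, erasers and readers of DNA methylation were examined in NIH/3T3 cells, an immortalised line of mouse embryonic fibroblasts, as a set of 9 genes: *Dnmt1*, *Dnmt3a*, *Dnmt3b*, *Uhrf1*, *Uhrf2*, *Tet1*, *Tet2*, *Tet3* and *Mbd2*. The members were chosen by their symbols, and every transcript deposited under one of these symbols was taken. All 9 genes were found, with 23 transcripts out of 34200 transcripts of 21945 genes. The libraries were polyadenylated RNA of cells sampled 48 h after transfection with 10 nM siRNA. In 2 libraries (KD) the siRNAs were directed against *Setd2*, the gene of the methyltransferase that writes trimethylation of lysine 36 on histone H3, and in the other 2 libraries (WT) a Scrambled siRNA was used.

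Methyl groups on cytosine are laid down mainly at CpG dinucleotides. DNMT1 copies the pattern onto the new strand after replication and is brought to hemimethylated sites by UHRF1, whereas DNMT3A and DNMT3B methylate sites afresh. TET enzymes oxidise the methyl group as a step towards its removal, and proteins with a methyl-CpG binding domain, such as MBD2, read the mark. DNMT3A and DNMT3B carry a PWWP domain that binds histone H3 methylated at lysine 36, the mark that SETD2 trimethylates along transcribed genes.

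The values used for each transcript were the authors' mean over the 4 libraries, the variance over the same 4 libraries and a technical variance, which covers both the counting of reads and their assignment to transcripts. The authors' own comparison of KD with WT was not used, and no value of a single library was at hand, so the difference between KD and WT and its direction are not given. The value of each replicate and the depth of each library are not given either. Levels below are normalised estimated counts, as the geometric mean over KD and WT together, and are set against each other per kilobase of transcript. The spread of a transcript is the square root of the deposited variance on the log2 scale. It mixes the difference between KD and WT with the difference between replicates. The same variance puts a ceiling on the difference between the mean log2 values of KD and WT, reached if the replicates of each group had been identical. The ceiling bounds the deposited estimates, and limits the transcript itself only where the technical error is small. A high ceiling says nothing of whether a transcript moved. In 4 member transcripts, Dnmt3b-207, Dnmt3b-201, Dnmt3b-209 and Mbd2-202, the technical SD was above the ceiling.

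The cells had the markers of fibroblasts. All 6 fibroblast markers were among the transcripts, from *Vim*, the gene of an intermediate filament protein, at 68589 normalised estimated counts per kilobase, to *Pdgfrb*, a growth factor receptor gene, at 570.1. *Col1a2* and *Col1a1*, which encode the chains of type I collagen, stood at 51076 and 30444 per kilobase. Of the epithelial markers, *Epcam* was not among the tested transcripts, and *Cdh1* and *Krt8* were at 25.4 and 11.5 per kilobase. *Ptprc*, a leukocyte marker, was at 6.40 per kilobase, the pluripotency gene *Nanog* was at 29.1, and *Pou5f1* was not among the tested transcripts. For comparison, the median gene had a level of 120.0 per kilobase.

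*Setd2*, the target of the siRNAs, had a single tested transcript, Setd2-201, with a mean level of 1844 normalised estimated counts or 220.8 per kilobase. Its spread over the 4 libraries was 1.15 log2 units, more than in 99.8% of the 1000 transcripts nearest to it in mean level, whose median was 0.18. The technical SD was 0.03 log2 units, the size of the counting (Poisson) error at this level, 0.03. The ceiling on the difference between KD and WT was 2.00 log2 units. Which libraries were low in *Setd2* cannot be read from pooled values, so the labels were not checked against the knockdown.

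The 9 genes covered a range of 131-fold in level per kilobase. *Uhrf1* and *Dnmt1*, the pair that maintains methylation, were highest at 1849 and 1774 per kilobase, above 88.7% and 88.2% of all genes. *Mbd2* followed at 1131 per kilobase, and *Uhrf2*, a paralogue of *Uhrf1*, at 551.8. *Tet3* and *Dnmt3a* were close to each other at 340.4 and 300.6. *Dnmt3b* had a level of 149.7, just above the median gene, while *Tet2* at 64.0 and *Tet1* at 14.1 were below it. In this order, 2 pairs of neighbours did not differ beyond the larger spread of their leading transcripts: *Uhrf1* and *Dnmt1* were 0.06 log2 units apart, and *Tet3* and *Dnmt3a* 0.18. The other steps in the order ranged from 0.65 log2 units between *Dnmt1* and *Mbd2* to 2.18 between *Tet2* and *Tet1*. The spread of a summed gene was not available, and for *Dnmt3b*, whose leading transcript held 32.9% of the gene and varied less than its other transcripts, the steps of 1.01 to *Dnmt3a* and 1.23 to *Tet2* are given without such a comparison.

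**Figure D1:**
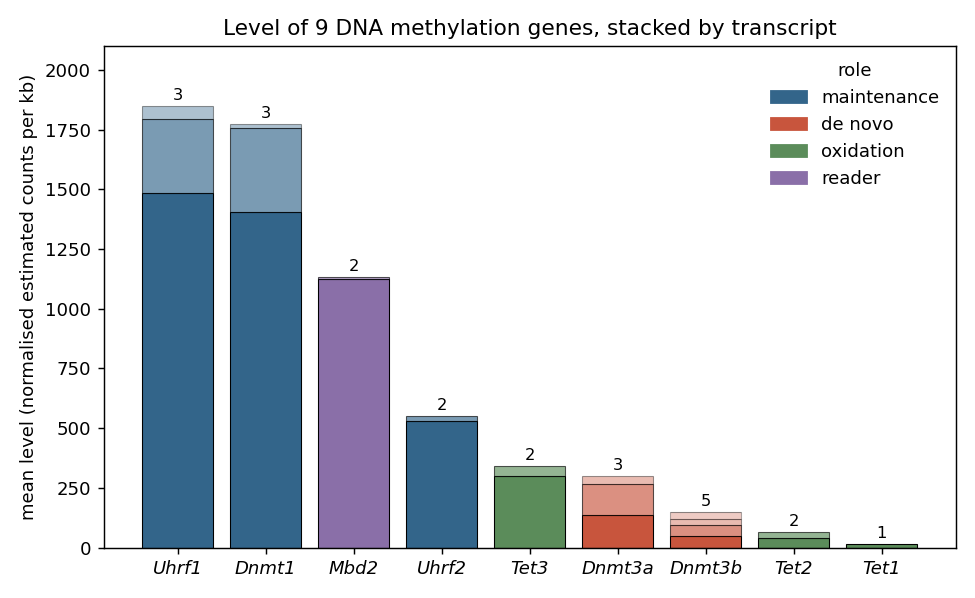
Level of each gene as the authors' mean over the 4 libraries, in normalised estimated counts per kilobase, stacked by transcript with the leading transcript at the bottom and the number of tested transcripts above each bar. Colours give the role; *Uhrf1* and *Dnmt1* stand highest at 1849 and 1774, and *Tet1* lowest at 14.1.

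Maintenance methylation came first. *Dnmt1* lies on the reverse strand of chromosome 9 and had 3 tested transcripts that differ in their first exon, though not there alone. Dnmt1-201, which begins at position 20952979 (GRCm38) and encodes 1620 residues, held 79.2% of the level per kilobase of the gene. Dnmt1-202 begins 6909 bases upstream, and Dnmt1-203 begins 356 bases downstream of that site. Both encode a frame of 1501 residues, 119 fewer than in Dnmt1-201. How many of the 119 lie at the N terminus was not examined. Dnmt1-202 had a level of 352.9 per kilobase and a share of 19.9%, and Dnmt1-203 had a level of 16.1 and a share of 0.909%. A *Dnmt1* first exon upstream of the somatic one is known from oocytes, where translation starts at a later codon. The tested sequence that sets Dnmt1-202 apart was short: 154 of its 5218 different 31-base words were found in no other tested transcript, and all 154 touched its first exon of 156 bases. Dnmt1-201 had 304 such words, of which 271 touched its first exon, so it also differs from the other 2 elsewhere. Words that Dnmt1-202 shares with Dnmt1-203 alone were not counted, and the level of Dnmt1-202 may also rest on reads over them.

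The sequences just upstream of the alternative starts are shown because the isoform levels differed between them. Promoter windows reaching from 250 bases before to 50 bases after a start, taken from RefSeq (GRCm38.p6), were found for 8 of the 9 genes, with 13 windows in all. They are set on RefSeq starts, which can differ from the starts of the tested transcripts, in *Tet1* by 11794 bases. Over 32851 windows of all genes the median was 7 CpG per window. The window of Dnmt1-201 held 12 CpG, more than 60.4% of all windows, and that of Dnmt1-202 held 2, more than 14.1%. The window of Dnmt1-203, the least abundant of the 3 transcripts, held 33 CpG, more than 91.4% of windows. The 250 bases before the first 2 of these starts, at chr9:20952980-20953229 and chr9:20959889-20960138 (GRCm38.p6, reverse strand), are given 5′ to 3′ with every CpG in capitals. Both lie outside the exons of the tested *Dnmt1* transcripts.

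Dnmt1-201: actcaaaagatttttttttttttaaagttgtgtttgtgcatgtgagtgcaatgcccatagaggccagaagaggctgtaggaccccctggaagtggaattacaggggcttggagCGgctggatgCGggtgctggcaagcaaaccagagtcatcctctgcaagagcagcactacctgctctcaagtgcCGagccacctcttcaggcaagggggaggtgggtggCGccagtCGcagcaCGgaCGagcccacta

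Dnmt1-202: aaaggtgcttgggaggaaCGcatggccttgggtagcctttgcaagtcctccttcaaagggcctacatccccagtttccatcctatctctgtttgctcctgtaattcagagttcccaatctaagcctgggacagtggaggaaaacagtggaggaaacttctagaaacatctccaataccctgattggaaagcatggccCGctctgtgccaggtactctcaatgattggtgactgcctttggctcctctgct

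*Uhrf1*, on the forward strand of chromosome 17, also had 3 tested transcripts. Uhrf1-201 held 80.3% of the level per kilobase, at 1485, and encodes 782 residues. Uhrf1-202 begins 992 bases further downstream and had a level of 309.8 per kilobase, a share of 16.8%. Uhrf1-203 begins 79 bases downstream of Uhrf1-201 and had a level of 54.5 per kilobase. The 2 shorter frames, of 774 residues, made up 19.7% of the gene. Here the start of the leading transcript had less CpG: its window held 12 CpG, against 33 in the window of Uhrf1-202. The 250 bases before the RefSeq starts, at chr17:56303087-56303336 and chr17:56304063-56304312 (GRCm38.p6, forward strand), read as follows, with CpG in capitals. The first RefSeq start lies 16 bases downstream of the start of Uhrf1-201, so the last 16 bases of that sequence are within its first exon.

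Uhrf1-201: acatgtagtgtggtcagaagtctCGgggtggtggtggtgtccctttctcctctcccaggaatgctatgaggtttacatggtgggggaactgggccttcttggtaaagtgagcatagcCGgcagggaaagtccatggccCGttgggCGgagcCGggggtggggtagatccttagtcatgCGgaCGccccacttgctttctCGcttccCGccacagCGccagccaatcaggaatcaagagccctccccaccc

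Uhrf1-202: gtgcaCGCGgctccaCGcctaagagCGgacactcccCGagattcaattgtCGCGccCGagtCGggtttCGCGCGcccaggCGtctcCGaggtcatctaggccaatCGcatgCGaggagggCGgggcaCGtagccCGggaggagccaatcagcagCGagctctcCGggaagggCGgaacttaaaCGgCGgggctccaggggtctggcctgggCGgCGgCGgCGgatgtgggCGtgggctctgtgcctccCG

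The 8 residues by which the *Uhrf1* frames differ come from an exon at chr17:56313041-56313251 (GRCm38, forward strand), which starts 24 bases earlier in Uhrf1-201 than in the other 2 transcripts. This exon also encodes part of the PHD finger, a zinc-binding fold that reads the tail of histone H3. It is shown from the GENCODE M21 transcript, with the 24 bases of Uhrf1-201 in capitals.

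Uhrf1 exon: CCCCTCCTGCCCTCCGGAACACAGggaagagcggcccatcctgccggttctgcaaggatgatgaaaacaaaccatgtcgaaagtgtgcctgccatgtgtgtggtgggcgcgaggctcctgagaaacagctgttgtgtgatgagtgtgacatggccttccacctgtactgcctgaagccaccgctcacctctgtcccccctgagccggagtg

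*Uhrf2* was made almost entirely of Uhrf2-201, which encodes 803 residues and had a level of 530.5 per kilobase, 96.1% of the gene. Uhrf2-202, annotated as a transcript with a retained intron, was at 21.4 per kilobase. It was the single tested transcript of the 25 retained-intron transcripts that GENCODE M21 lists for the 9 genes. GENCODE M21 lists 83 transcripts of these genes in all and tags 31 as basic, of which 22 were tested. The share of retained-intron transcripts tested over all genes was not counted. The transcript index and low-count filter are not known, so the 1 of 25 is not a measure of intron retention.

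*Dnmt3a* and *Dnmt3b*, the writers of new methylation, had lower levels than *Dnmt1*. *Dnmt1* was 5.90-fold higher than *Dnmt3a* per kilobase, *Dnmt3a* was 2.01-fold higher than *Dnmt3b*, and *Dnmt1* made up 79.8% of the summed level of the 3 methyltransferase genes. *Dnmt3a* lies on the forward strand of chromosome 12. Dnmt3a-201 and Dnmt3a-218, which begin 130 bases apart and encode the same frame length of 908 residues, had 137.0 and 129.5 per kilobase and together held 88.7% of the gene. Dnmt3a-205 begins 84698 bases downstream of Dnmt3a-201 and encodes 689 residues. This shorter form, which lacks the N-terminal part, is known from embryonic stem cells and germ cells. It had a level of 34.0 per kilobase, 11.3% of the gene per kilobase but 3.12% of its estimated counts, since it is shorter. Its spread was 1.68 log2 units over the 4 libraries, and its technical SD was 1.18.

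The windows of the upstream and downstream *Dnmt3a* starts differed in CpG content. The upstream windows held 46 and 47 CpG, more than 98.4% and 98.6% of all windows, and the downstream window held 18, more than 70.3%. The 250 bases before an upstream and the downstream RefSeq start, at chr12:3806730-3806979 and chr12:3891494-3891743 (GRCm38.p6, forward strand), are shown with CpG in capitals. They hold 38 and 15 CpG. The upstream RefSeq start lies 50 bases before that of Dnmt3a-201, and the downstream one 16 bases after that of Dnmt3a-205, whose first exon holds the last 16 bases shown.

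Dnmt3a upstream start: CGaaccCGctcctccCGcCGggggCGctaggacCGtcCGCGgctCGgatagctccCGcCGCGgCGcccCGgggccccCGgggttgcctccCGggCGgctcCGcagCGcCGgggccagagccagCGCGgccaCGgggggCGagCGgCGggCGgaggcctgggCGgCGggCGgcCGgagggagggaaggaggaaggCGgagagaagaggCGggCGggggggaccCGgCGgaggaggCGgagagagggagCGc

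Dnmt3a downstream start: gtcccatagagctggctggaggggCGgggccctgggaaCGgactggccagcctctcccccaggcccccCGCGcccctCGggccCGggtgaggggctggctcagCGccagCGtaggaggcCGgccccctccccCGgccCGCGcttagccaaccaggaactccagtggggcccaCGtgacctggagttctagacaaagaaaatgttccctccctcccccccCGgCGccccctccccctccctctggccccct

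**Figure D2:**
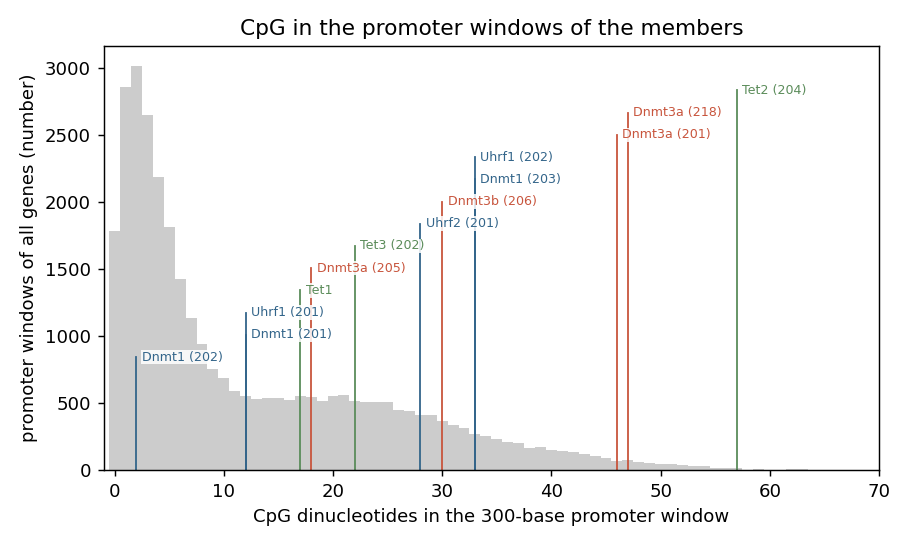
Number of CpG dinucleotides in the 300-base promoter windows of all genes (grey bars, 32851 windows) and in the 13 windows of the members (coloured lines, whose heights carry no value), named by gene and, in brackets, by the number of a tested transcript that starts within 100 bases. The windows range from 2 CpG for Dnmt1-202 to 57 for *Tet2*, and 12 of the 13 are above the median of 7.

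*Dnmt3b*, on the forward strand of chromosome 2, had 5 tested transcripts and no dominant one. Dnmt3b-207 led with 32.9% of the level per kilobase, followed by Dnmt3b-206 with 29.9%, Dnmt3b-201 with 18.8%, Dnmt3b-209 with 17.6% and Dnmt3b-203 with 0.824%. They differ in optional coding exons. Dnmt3b-207 and Dnmt3b-201 encode 860 residues. Dnmt3b-209 and Dnmt3b-203 lack an exon of 60 bases and start another exon 3 bases later, which leaves 839 residues. Dnmt3b-206, with 776 residues, also lacks a pair of neighbouring exons of 70 and 119 bases, or 63 residues of the catalytic region. Isoforms without these exons are known to be catalytically inactive. Transcripts with the pair held 70.1% of the level per kilobase of the gene, and those with the 60-base exon held 51.7%.

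These exons are shown from the GENCODE M21 transcripts because they define the forms of *Dnmt3b* that were present. They lie at chr2:153670849-153670908, chr2:153675726-153675813, chr2:153683608-153683677 and chr2:153684359-153684477 (GRCm38, forward strand), and all are coding. Capitals mark the bases that at least 1 tested transcript lacks.

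60-base exon: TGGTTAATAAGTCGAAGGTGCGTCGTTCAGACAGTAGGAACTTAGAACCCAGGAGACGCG

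88-base exon: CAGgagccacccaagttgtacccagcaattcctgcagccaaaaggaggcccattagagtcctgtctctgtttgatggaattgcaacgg

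70-base exon: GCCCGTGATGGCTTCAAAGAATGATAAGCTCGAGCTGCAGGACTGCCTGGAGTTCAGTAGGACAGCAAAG

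119-base exon: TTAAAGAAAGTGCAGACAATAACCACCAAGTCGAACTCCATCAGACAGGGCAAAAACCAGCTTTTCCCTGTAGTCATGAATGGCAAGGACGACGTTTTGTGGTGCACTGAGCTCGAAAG

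The shares of the *Dnmt3b* forms were poorly resolved. The technical SD was 2.75 log2 units for Dnmt3b-201 and 1.99 for Dnmt3b-209, against counting errors of 0.13 and 0.14. For Dnmt3b-203, at 5.25 normalised estimated counts, it was 1.67, against a counting error of 0.63. Dnmt3b-207, Dnmt3b-201 and Dnmt3b-203 had no 31-base word that was absent from all other tested transcripts, Dnmt3b-209 had 3, and Dnmt3b-206 had 27. Their spreads over the libraries also differed, from 0.05 log2 units in Dnmt3b-207 to 1.19 in Dnmt3b-206 and 3.99 in Dnmt3b-203. The order of these forms is thus a description of the pooled estimated counts alone, and may differ in single libraries or in KD and WT.

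The TET genes were dominated by *Tet3*. It made up 81.3% of the summed level per kilobase of *Tet1*, *Tet2* and *Tet3* and was 5.32-fold higher than *Tet2* and 24.1-fold higher than *Tet1*. Tet3-202, which encodes 1668 residues, held 88.7% of the gene at 301.9 per kilobase. Tet3-203 begins 14717 bases upstream, encodes 135 residues more, and was at 38.5 per kilobase. The long form of TET3 is known to carry a CXXC zinc finger, a fold that binds CpG, in its N-terminal part. *Tet1*, which is best known from embryonic stem cells, had a single tested transcript, Tet1-206, with a frame of 2039 residues and 203.0 normalised estimated counts over its 14369 bases. It begins 11794 bases upstream of the start in the RefSeq window.

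*Tet2*, on the reverse strand of chromosome 3, had 2 tested transcripts that differ in coding sequence by an exon of 24 bases at chr3:133479342-133479365 (GRCm38). Tet2-204, which includes it and encodes 1920 residues, had 39.1 per kilobase, and Tet2-201, with 1912 residues, had 24.9. This difference of 0.65 log2 units was larger than the spread of either transcript over the libraries, 0.35 and 0.53. It was also larger than either technical SD, 0.27 and 0.46. These are values of single transcripts, and the error of the difference between the 2 was not available. In Tet2-204 0.60% of the words were found in no other tested transcript, and in Tet2-201 2.32%. Which form was higher is thus not settled by this comparison, and their order describes the pooled estimated counts alone. The exon is shown in capitals with 30 bases of Tet2-204 on either side.

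Tet2 exon: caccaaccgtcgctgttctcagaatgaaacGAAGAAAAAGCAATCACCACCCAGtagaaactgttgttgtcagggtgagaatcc

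*Mbd2* was the reader of the set. Mbd2-201, with a frame of 414 residues, held 99.4% of the level per kilobase, and Mbd2-202, with 249 residues, was at 9.22 normalised estimated counts.

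**Figure D3:**
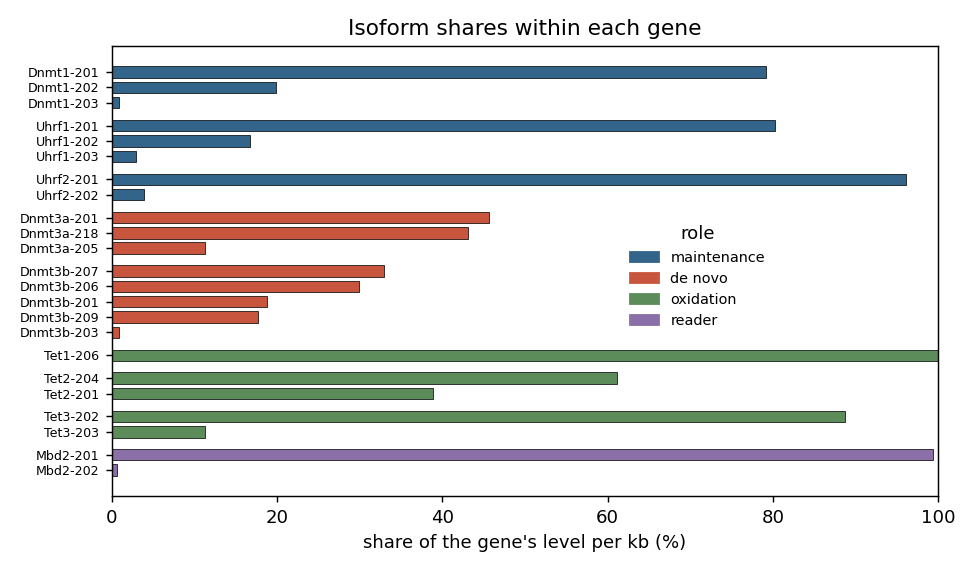
Share of each tested transcript in the level per kilobase of its gene, in percent, from the authors' means over the 4 libraries, with colours by role. The leading transcript held between 32.9% in *Dnmt3b* and 99.4% in *Mbd2* among the 8 genes with more than 1 tested transcript.

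How far each isoform could be followed was read from the technical SD set against the counting error expected at its mean level. In 6 of the 23 transcripts the technical SD was within 1.5 times the counting error (26.1%), against 62.8% of all transcripts, and the median ratio was 3.17 in the members and 1.22 in all transcripts. The ratio was 1.01-fold in Mbd2-201 and Tet3-202, 1.07-fold in Uhrf2-201 and 1.04-fold in Mbd2-202, whose technical SD of 0.49 log2 units at 9.22 normalised estimated counts was thus close to counting error alone. At the other end were 3 transcripts with more than 10 times their counting error (13.0%, against 1.62% of all transcripts), Dnmt3b-201 (20.99-fold), Uhrf1-203 (18.3-fold) and Dnmt3b-209 (14.4-fold). The members were 23 transcripts of 9 genes, and all transcripts were 34200 of 21945 genes. These sets were not matched for the number of tested transcripts per gene, and the difference in shares was not tested.

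Sequence shared between isoforms was counted for comparison. Of the 23 transcripts, 12 had under 5% of their 31-base words to themselves, and Dnmt3b-201, Dnmt3b-203, Dnmt3b-207 and Uhrf1-203 had none. The same count was not made over all transcripts, so it does not set the members apart from other genes. Whether the ratio goes with the share of own words was not tested. Uhrf1-201, with 3.74% of its words to itself, had a technical SD of 2.25 times its counting error. Tet1-206 had 99.7% of its words to itself among the tested transcripts, and its technical SD of 0.61 log2 units was 6.01-fold its counting error of 0.10. Words were compared among tested transcripts, and the transcriptome used by the authors to assign reads may hold more. Counting errors were taken at normalised levels, so they are approximate for libraries whose depth is far from the mean.

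**Figure D4:**
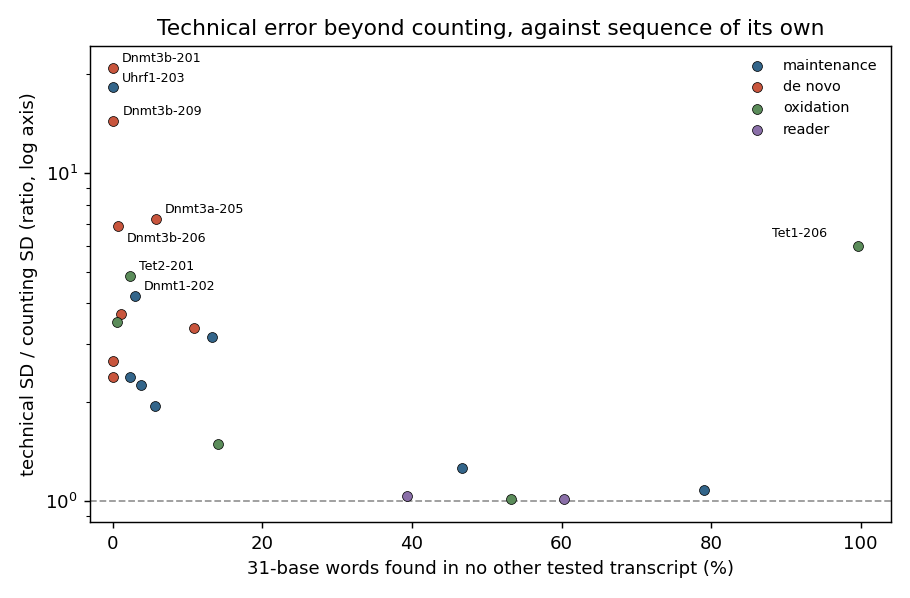
Technical SD of each of the 23 transcripts as a ratio to its counting error (log axis, dashed line at 1) against the percentage of its 31-base words found in no other tested transcript, coloured by role. Ratios range from 1.01 for Mbd2-201 to 20.99 for Dnmt3b-201, and Tet1-206 stands apart at 99.7% and 6.01.

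The ceiling on the difference between KD and WT was under 1 log2 unit in 19 of the 23 transcripts (82.6%), against 77.2% of all 34200 transcripts. Below a level of 1000 it was 10 of 14 members (71.4%) against 70.1%, and from 1000 up 9 of 9 against 97.0%. The median ceiling was 0.51 log2 units in the members and 0.54 in all transcripts. At the lower limit of 0.5 log2 units the shares were 9 of 9 members against 77.6% of 9010 transcripts from a level of 1000 up, and 2 of 14 members (14.3%) against 35.3% of 25190 transcripts below it. Those 2 were Dnmt3b-207 and Mbd2-202. Their technical SDs, 0.26 and 0.49 log2 units, were above their ceilings, 0.09 and 0.24. The 19 under 1 log2 unit also included Dnmt3b-201 and Dnmt3b-209, whose technical SD was above the ceiling as well. Below a level of 1000 the median ceilings of members and of all transcripts were 0.86 and 0.67 log2 units, and from 1000 up 0.24 and 0.31. These shares describe the members and were not tested.

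Dnmt1-201 had a spread of 0.08 log2 units, more than in 13.7% of the 1000 transcripts of similar level. Its mean in KD and its mean in WT were therefore at most 0.14 log2 units apart, a ratio of at most 1.10 in either direction. Mbd2-201 had a ceiling of 0.16 and Tet3-202 of 0.19 log2 units. Uhrf1-201 and Uhrf2-201 had ceilings of 0.29 and 0.32 log2 units, and their spreads were near the middle of those of similar transcripts, at the percentiles 49.4 and 51.6. For the *Dnmt3a* transcripts of the long frame the ceilings were 0.35 log2 units in Dnmt3a-201 and 0.17 in Dnmt3a-218, whose spread of 0.10 was under its technical SD of 0.16. In Dnmt1-202, the upstream-start form, the ceiling was 0.37. None of these transcripts can have differed between KD and WT by as much as 0.5 log2 units in the deposited estimates.

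A wider range remained for 4 transcripts, whose ceilings were above 1 log2 unit. Dnmt3a-205, the short form of *Dnmt3a*, had a spread of 1.68 log2 units and a ceiling of 2.91. Dnmt3b-206, the form without the pair of catalytic exons, had a spread of 1.19 and a ceiling of 2.06. Uhrf1-203 had a spread of 1.54 and a ceiling of 2.66, and Dnmt3b-203, at 5.25 normalised estimated counts, a spread of 3.99. The spreads of these 4 transcripts were above those of 97.9% to 99.2% of transcripts of similar level. In each of them the technical SD was at least 0.75 log2 units, and in Uhrf1-203 this SD, 1.92, was above the spread itself. Whether any part of these spreads separated KD from WT was not tested.

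Dnmt3b-207 stood at the other end. Its spread of 0.05 log2 units was more than in 0.900% of the 1000 transcripts of similar level and was under its own technical SD, 0.26. Mbd2-202 likewise had a spread of 0.14, under its counting error of 0.48. The technical SD was above the spread in 8 of the 23 member transcripts (34.8%), against 27.7% of all transcripts. For the TET genes of low level, the ceilings were 0.60 log2 units in Tet2-204, 0.93 in Tet2-201 and 0.63 in Tet1-206, and Tet3-203, the form with the upstream start, had 0.79.

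**Figure D5:**
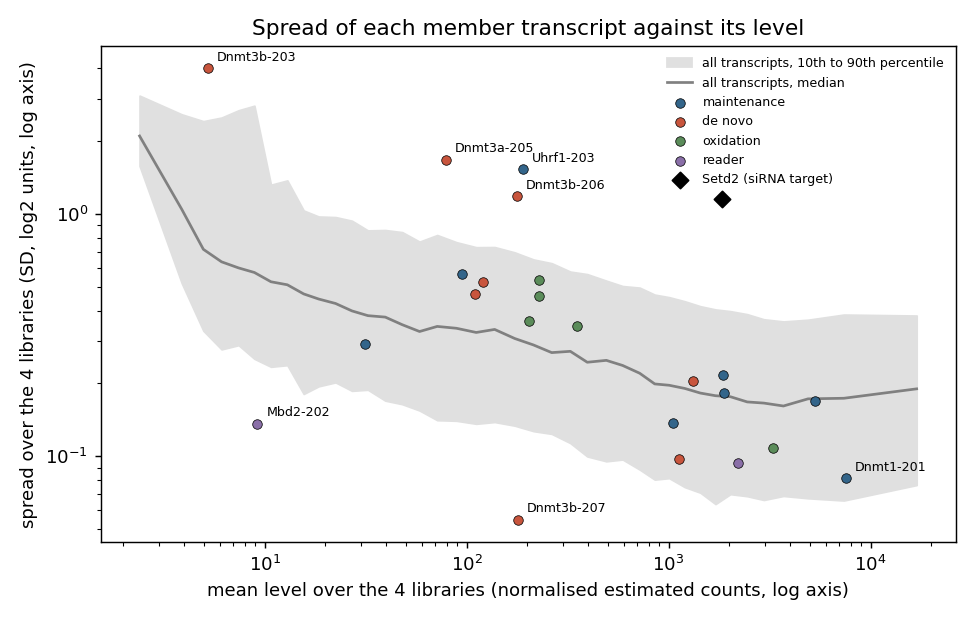
Spread of each member transcript over the 4 libraries (SD in log2 units, log axis) against its mean level (normalised estimated counts, log axis), coloured by role, with *Setd2* as a diamond and the median and the range from the 10th to the 90th percentile of all 34200 transcripts in grey. Dnmt1-201 lies at 0.08 log2 units, whereas Dnmt3b-203, Dnmt3a-205, Uhrf1-203 and Dnmt3b-206 lie above the grey range at 3.99, 1.68, 1.54 and 1.19, and *Setd2* at 1.15.

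A list of 23 other genes of the pathway was examined in the same way, and 21 of them were among the tested genes. *Cxxc4*, a CpG-binding inhibitor of Wnt signalling, and *Dppa3*, which shields methylation in the early embryo, were not. The highest levels per kilobase were those of *Mat2a*, which makes the methyl donor S-adenosylmethionine, at 12297, of *Mbd3*, a subunit of the NuRD complex, at 3470, and of *Usp7*, the gene of a deubiquitinase that binds DNMT1 and UHRF1, at 2043. The lowest were *Ahcy*, which clears the product of methyl transfer, at 72.0, *Trdmt1*, a tRNA methyltransferase related to the DNMT enzymes, at 98.2, and *Zbtb4*, a reader with zinc fingers, at 109.2. *Cxxc5* matched the annotation in a later version of its transcript, and so has no level per kilobase under the main rule. In the remaining 20 genes the median was 489.6 per kilobase, against 340.4 in the 9 members, and 17 of the 20 were above the median of all genes. Their leading transcripts had ceilings under 0.5 log2 units in 14 genes and of 1 or more in 2 genes.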

How the data were processed

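RNA-seq libraries of 2 KD and 2 WT samples were analysed from 1 table of transcripts. The authors removed adapters with BBDuk, estimated counts with Kallisto and summarised them with Sleuth; the submitters' notes name GRCm38, and the transcript index and low-count filter were not given in the sources used here. The deposited means are in natural log units of normalised estimated counts plus 0.5, and the variance over the 4 libraries and the technical variance, which Sleuth takes from Kallisto's resampled reads and which holds counting error as well as assignment error, are on the same scale. The remaining columns and a second table hold the authors' own comparison of KD and WT (effects, standard errors, test statistics, p-values and q-values) and were not used. Without values of single libraries no test was made.

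Levels were the exponential of the mean minus 0.5, summed over the transcripts of a gene and divided by spliced lengths of GENCODE M21, to which 98.6% of transcripts matched by identifier and version. Spreads were compared with the 1000 transcripts nearest in mean level. The ceiling on the difference between KD and WT is the square root of 3 times the variance, the value at which no variance is left within groups. For this the deposited variance was taken as the sample variance that Sleuth computes. The ceiling was added after the values were seen. A run on simulated data checked the code only, since the formula fixes its outcome. That run could not check how the deposited variance was computed. Counting error was 1 over the square root of the level, as log2 units. Words of 31 bases were compared between tested transcripts. Named genes were all members, *Setd2*, the cell type markers, and from the pathway list the 3 highest, the 3 lowest and those not tested. *Cxxc5*, *Dnmt3l*, *Tdg* and *Cdca7* were named after their values were seen. The members and lists were chosen with earlier results of these data known. Alternatives were other offsets, lengths, shares, identifier matching and neighbour numbers. Python 3.11.15, pandas 2.3.3 and numpy 2.4.6 were used.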

Additional observations from a re-analysis of the deposited data

How the results depend on the processing

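No paired analysis was possible because the values are pooled over the 4 libraries; for the same reason the planned test of KD against WT, its alternatives and leaving out each replicate were not run, and the depth of each library is unknown. Leaving 0.5 in the levels raised them by at most 0.423% and dropping transcripts under 10 lowered them by at most 0.888% in the 9 genes. Shortening each transcript by 200 bases raised the levels per kilobase by 1.41% to 11.5% and kept the order of the 9 genes, whereas the order of summed counts, which longer transcripts raise, differed. Only *Dnmt3b* (157.7 per kilobase) and *Mbd2* (1261) moved by more than the spread of their leading transcript. Shares of counts in place of shares per kilobase moved 1 of 8 leading shares by more than the spread, that of *Dnmt3b*, to 30.2%. Shares of 4 other transcripts, each shorter than its leading transcript, fell by over 1.5 times: Dnmt3a-205 from 11.3% to 3.12%, Tet3-203 from 11.3% to 6.50%, Uhrf2-202 from 3.87% to 1.64% and Mbd2-202 from 0.632% to 0.418%. With 500 in place of 1000 neighbours, percentiles of the spread moved by at most 2.60 points. Subtracting the technical variance lowered 12 of 23 spreads by more than 1.5 times, 8 of them to 0. For the ceiling, a result chosen after seeing the data, it gave 20 transcripts with a ceiling under 1 log2 unit of 23 in place of 19; with transcripts of at least 10 it was 18 of 21 (85.7%).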

Other observations

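*Dnmt3l*, a partner of DNMT3A and DNMT3B without catalytic activity that is best known from germ cells and embryonic stem cells, was among the tested genes with 5 transcripts and a summed level of 221.4 per kilobase, above 56.6% of all genes. Its leading transcript, Dnmt3l-208, held 34.1% of the level, and its spread of 1.48 log2 units was under its technical SD, 1.89. *Tdg*, whose product removes oxidised cytosines made by the TET enzymes, had a leading transcript, Tdg-201, with a spread of 0.75 log2 units, more than in 97.8% of transcripts of similar level, and a technical SD of 0.06. *Cdca7*, which acts with the remodeller HELLS in maintaining methylation, had a leading transcript with a spread of 0.02 log2 units, close to its technical SD of 0.02, and a ceiling of 0.04 on the difference between the estimates of KD and WT.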
